A study of Mus musculus with 16 samples.

Results

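The effect of a mammary tumor on common dendritic cell progenitors (CDPs) was measured by setting CDPs sorted from the bone marrow of tumor-bearing mice against CDPs from tumor-free mice. The comparison takes 8 of the 16 arrays of the series, chosen by their titles: 4 arrays of CDPs from mice bearing PyMT tumors and 4 of CDPs from normal mice. The other 8 arrays hold macrophage-dendritic cell progenitors (MDPs), the stage before the CDP, from the same kinds of mice. All mice were female and of the strain C57/Bl6, and the controls were age-matched animals without tumors. Tumors grew in the mammary fat pad from the PyMT B6 line, which comes from the genetic MMTV-PyMT mammary tumor model on the same background, and marrow was taken when they measured 1.5 cm across. PyMT is the polyoma middle T antigen, driven in that model by a mammary tumor virus promoter. A single tumor line was used, and each sample pooled 2 mice. Both groups went through the same lineage depletion, cell sorting and linear RNA amplification.

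CDPs are bone marrow cells that have lost most other fates and give rise to conventional dendritic cells (cDC1 and cDC2) and to plasmacytoid dendritic cells (pDCs). They are held in this path by the receptor tyrosine kinase FLT3 and by transcription factors such as IRF8, PU.1 and, for pDCs, TCF4. The cytokine G-CSF, which signals through STAT3 and drives granulocyte production, is raised by many tumors, and type I interferon acts through STAT2 and IRF9 on promoters that carry an interferon-stimulated response element.

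Levels are given as log2 intensity relative to the 75th percentile of each array, so that a value of 0 is the level of a bright probe and no level of a probe can be set against that of another probe. Values by array are given in the order of samples 2, 3, 4 and 5 of a group. The arrays were read from 4 slides. Slides 2, 3 and 4 each held CDPs of both groups, while tumor-free sample 5 lay on a slide with MDPs only, and a slide term in the fit removed differences between slides, which the MDP arrays helped to estimate. On the CDP arrays, 64.0 to 71.5% of probes were well above background. Correlations between arrays of one group were 0.904 to 0.977 among tumor-free samples and 0.954 to 0.972 among tumor-bearing ones. Csf1r, a receptor used in the sort, read 4.1 to 4.6 on all 8 arrays. The other receptor genes of the sort were present too: Flt3 read 1.77, 1.85, 1.19 and 2.02 on the tumor-free arrays and 0.64, 1.26, 0.14 and 1.61 on the tumor-bearing arrays. Kit, which encodes the stem cell factor receptor, and Cd34 were called lower with the tumor and are described with the progenitor genes. Of the markers of other cells, 9 of T cells, 7 of NK cells and 8 of mammary epithelium, 6 of mast cells and basophils and 8 of eosinophils were measured and 0 of these were called in either direction. Of 9 stromal and endothelial markers 1 was called, Pdgfrb, lower (-2.59 ± 0.63), of 6 B and plasma cell markers Vpreb3, lower, and of 11 monocyte and macrophage markers Cd163, lower, against a median of 0.33 for that list. Neutrophil, red cell and platelet markers are given beside the genes they touch. The 10 genes of CDP sorting and identity, Kit and Cd34 among them, had a mean of -0.179 to 0.239 on the tumor-free arrays and -1.03 to -0.362 on the tumor-bearing arrays, lower on every tumor-bearing array, and the part of the sort in the changes was not tested. In pools of cells, fewer cells of a type and less RNA per cell cannot be told apart, and p-values measure the spread between these samples, which came from separate mice in independent experiments per the labels.

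With a tumor, 1251 of 27433 probes tested (4.56%) changed by more than 1.5-fold at a false discovery rate below 0.05, 604 higher and 647 lower (limma, slide as a block, Benjamini-Hochberg over all probes). Taken as genes, by the brightest tested probe of each symbol, 820 of 17181 (4.77%) were called, 401 higher (2.33%) and 419 lower (2.44%). The size was moderate: the median change of called genes was 0.91 on the log2 scale, against a median SE of 0.18, and 357 of them moved by more than 2-fold. For 817 of the 820, the difference had the same sign on slides 2, 3 and 4. The calls were made from these same differences, so this agreement is no separate support. Raw levels of the 4 tumor-bearing arrays did not overlap those of the 4 tumor-free arrays for 606 of the called genes, while over all genes 10.8% did not overlap (5.36% higher, 5.46% lower). Such a gene has an exact two-sided permutation p of 0.0286 on its raw levels, the smallest that 4 against 4 arrays allow. The fit leaned on the slide term and on the MDP arrays. Without the slide term 335 genes were called, and 331 of the 820 were among them. In a fit of the 8 CDP arrays alone, 6 genes were called with the slide term and 37 without it. Leaving out 1 array at a time left 152 genes called in all 8 fits and 25 in none, and the number of genes called fell to 190 without tumor-free sample 3 and to 217 without tumor-bearing sample 4.

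Changes also moved with the brightness of a probe. Among 5 bins of genes of like mean level, the median change was -0.22 in the dimmest, 0.01 in the next to brightest and 0.082 in the brightest, and the median over all genes was -0.059. The dimmest bin held few rises (0.436% of its genes, against 2.09% falls), and the brightest bin more rises than falls (2.82% and 1.19%). Group medians given here are therefore to be read against the bin in which a group lies. In groups compared across settings, quantile normalization kept the sign of every median beyond 0.1 of 0 where members were called. The size of some of these medians moved, and whether quantile normalization removed the trend was not tested. Without the slide term the median over all genes was 0.071, so a group median within about that size of 0 is given no direction here.

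**Figure D1:**
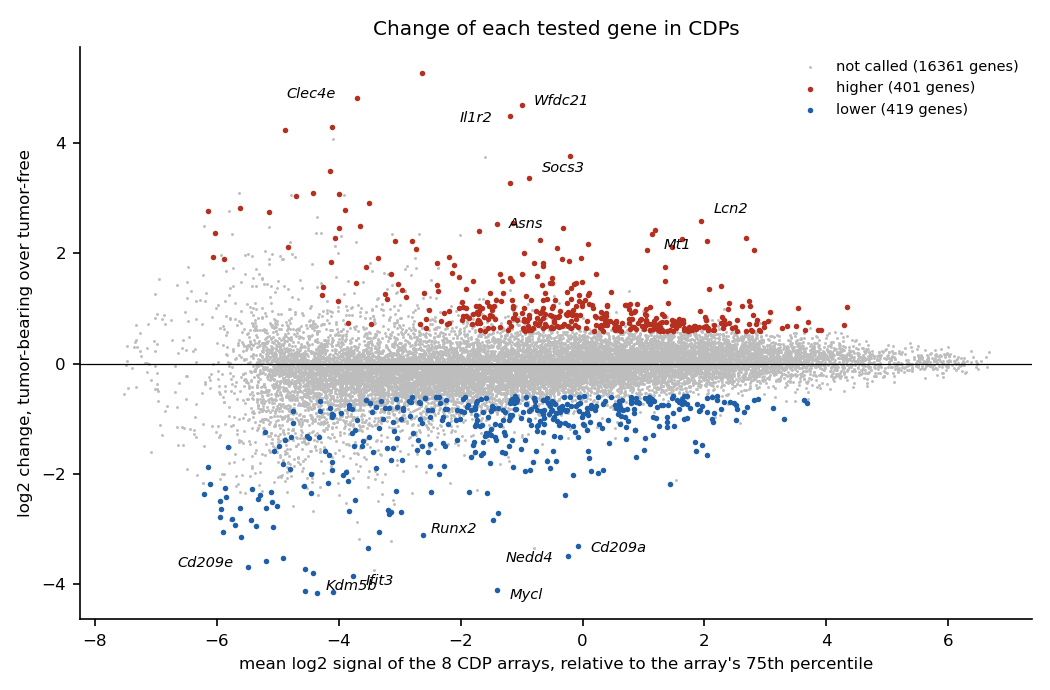
Change of each of the 17181 genes between CDPs of tumor-bearing and tumor-free mice (vertical axis, log2, fitted with the slide term) against its mean level over the 8 CDP arrays (horizontal axis, log2 intensity relative to the 75th percentile of the array). Colored points are the 401 genes called higher and the 419 called lower; gray points were not called.

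The largest rises among genes measured in both groups without overlap, with predicted names left out, were in secreted and granule proteins and in regulators of cytokine signaling. Wfdc21, a secreted protein of the WAP family, read -2.06, -3.23, -3.61 and -4.59 on the tumor-free arrays and 0.96, 1.88, 1.93 and 0.72 on the tumor-bearing arrays, with a fold of 25.8 (log2 change 4.69 ± 0.49 (SE), adjusted p = 0.00128). Il1r2, the decoy receptor that binds IL-1 without signaling, read -3.25, -4.14, -4.46 and -2.1 on the tumor-free arrays and 0.26, 1.77, 0.57 and 1.8 on the tumor-bearing arrays. Il1r2 changed by 4.5 ± 0.80 (SE, adjusted p = 0.0116). Every tumor-bearing array lay above every tumor-free array for both genes, and tumor-free sample 2 had the highest tumor-free level of Wfdc21. Lrg1, an acute-phase glycoprotein also stored in neutrophil granules, rose by 3.76 ± 0.55 and Lcn2, the siderophore-binding lipocalin of specific granules, by 2.59 ± 0.32 (adjusted p = 0.00510 and 0.00326). Socs3, the feedback inhibitor of gp130 and G-CSF receptor signaling, read -2.77, -2.75, -2.96 and -1.78 on the tumor-free arrays and 0.92, 1.21, 1.62 and -0.47 on the tumor-bearing arrays. Socs3 changed by 3.37 ± 0.45 (SE, adjusted p = 0.00371), or 10.3-fold. S100a8, a subunit of calprotectin, changed by 2.45 ± 0.58, with an adjusted p of 0.0333 close to the threshold. The remaining rises took in the junctional adhesion molecule F11r (2.91 ± 0.56), the protein-crosslinking transglutaminase Tgm1 (2.56 ± 0.36), the secreted dermokine Dmkn (2.42 ± 0.31), the triglyceride-forming enzyme Dgat2 (2.41 ± 0.32), the metal-binding metallothionein Mt1 (2.35 ± 0.19) and asparagine synthetase, Asns (2.53 ± 0.40), with adjusted p from 0.000440 to 0.0160. Among these 12 genes, the calls of Wfdc21, Lrg1, Socs3, Lcn2, Tgm1, Asns, Dmkn, Dgat2 and Mt1 held whichever array was left out. Leaving out tumor-free samples 3, 4 and 5 in turn lost 3, 2 and 1 and leaving out tumor-bearing samples 2, 3 and 4 in turn lost 1, 1 and 2. Of the 12, 2 were lost without the slide term.

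Clec4e, which encodes the C-type lectin Mincle of activated myeloid cells, was the single gene well above background on all tumor-bearing arrays and on 0 of the tumor-free arrays that was called higher. Its levels were -6.17, -5.85, -7.01 and -5.29 on the tumor-free arrays and -1.8, -0.79, -0.74 and -1.95 on the tumor-bearing arrays. Set against the lowest signal well above background, it was at least 15.5-fold higher with the tumor (adjusted p = 0.000699). For Clec4e, the call held without any 1 array.

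Among genes measured in both groups without overlap, with predicted names left out, the largest falls were in dendritic cell genes, in regulators of ubiquitin and actin, and in receptors. Mycl, the Myc-family factor expressed in dendritic cells, read 0.43, 0.69, 0.41 and 0.93 on the tumor-free arrays and -2.06, -3.59, -7.25 and -0.82 on the tumor-bearing arrays. Mycl changed by -4.12 ± 1.07 (SE, adjusted p = 0.0456), or 17.3-fold. Nedd4, a HECT-type ubiquitin ligase, read 1.83, 1.71, 1.19 and 1.35 on the tumor-free arrays and -1.61, -2.85, -1.89 and -1.61 on the tumor-bearing arrays. Nedd4 changed by -3.49 ± 0.25 (SE, adjusted p = 0.000143). No tumor-bearing array reached the tumor-free range of either gene, and tumor-bearing sample 4 read far lower than the others for Mycl. Cd209a, a mouse homolog of the pathogen receptor DC-SIGN, fell by 3.3 ± 0.49 and Runx2, a runt-domain transcription factor also used by pDCs, by 2.84 ± 0.38 (adjusted p = 0.00572 and 0.00371), although a second Runx2 probe changed by only -0.61 and was not called. Atp1b1, the beta subunit of the sodium pump, changed by -3.1 ± 0.38, and Bach2, a repressor of myeloid genes in lymphoid progenitors, by -2.35 ± 0.35 (adjusted p = 0.00306 and 0.00577). Ngfr, the low-affinity neurotrophin receptor, changed by -2.7 ± 0.57, Trp53i11, a p53-inducible gene, by -2.72 ± 0.39, and the adhesion molecule Cadm3 by -2.47 ± 0.65. Genes that act on actin or microtubules were the Slit-Robo pathway protein Srgap3 (-2.71 ± 0.43), the capping protein regulator Carmil1 (-2.39 ± 0.36) and Jakmip1 (-2.65 ± 0.61). Of these falls, the calls of Nedd4, Cd209a, Atp1b1, Runx2, Trp53i11, Carmil1 and Bach2 held whichever array was left out. Dropping tumor-free samples 2, 3, 4 and 5 in turn lost 1, 5, 4 and 3 and leaving out tumor-bearing samples 2, 3 and 4 in turn lost 1, 4 and 4. Of the 12, 3 were lost without the slide term. Further probes that were not called changed by -0.47 and -0.80 (Srgap3), -0.43 (Jakmip1) and -0.74 (Cadm3).

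On the other side, 12 genes called lower were well above background on all tumor-free arrays and on 0 of the tumor-bearing arrays. The brightest probe of Kdm5b, a histone demethylase, read -2.77, -2.51, -3.35 and -0.72 on the tumor-free arrays and -7.38, -6.82, -6.48 and -5.34 on the tumor-bearing arrays, at least 7.64-fold lower. Its other probes were not called: one above background on all 8 arrays changed by -0.48, and one above background on 4 tumor-free arrays and 1 tumor-bearing array by -1.35. The called fall of Kdm5b thus belongs to 1 of 3 probe positions (chr1:136528046-136528105, mm9). Perm1, a regulator of muscle mitochondria, was at least 5.92-fold lower, the uroplakin Upk1b at least 4.53-fold, the membrane peptidase Mmel1, whose second probe was called lower too, at least 3.36-fold, and the DC-SIGN homolog Cd209e at least 3.26-fold. The unnamed transcript D130062J21Rik, the myotubularin-related Mtmr11 and the water channel Aqp1 were at least 3.79, 2.92 and 2.81-fold lower. Cd209e read -4.21, -4.04, -3.43 and -2.59 on the tumor-free arrays and -7.49, -7.54, -7.33 and -7.25 on the tumor-bearing arrays, and Mmel1 -3.9, -3.41, -3.67 and -3.11 on the tumor-free arrays and -7.37, -6.74, -7.0 and -5.46 on the tumor-bearing arrays. The adjusted p of these 8 genes ran from 0.000143 to 0.0336. In this set, the calls of Kdm5b, Perm1, Upk1b, D130062J21Rik, Mmel1, Cd209e and Aqp1 held whichever array was left out and that of Mtmr11 was lost without tumor-free sample 2 or 3 or 4 or 5 and without tumor-bearing sample 2 or 3 or 4 or 5.

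Genes were next grouped by function, and the calls in each group set beside the 2.33% of all genes called higher and 2.44% called lower. Members and lists were chosen with earlier results of these data known. The shares therefore describe the lists and are no measure of enrichment. The groups with the highest share of members called higher held granule proteins, myeloid C-type lectins, antioxidant enzymes, ribosome biogenesis and amino acid metabolism, and those with the highest share called lower held pDC, interferon-stimulated, cDC2, dendritic cell transcription factor, progenitor and early lymphoid genes. Among the groups just named, the medians ran from -0.69 for interferon-stimulated genes and -0.66 for pDC genes to 0.62 for secondary and tertiary granule proteins and 0.69 for the C-type lectins. Where another setting moved a group median by over 1.5 times, its value is given with that group.

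**Figure D2:**
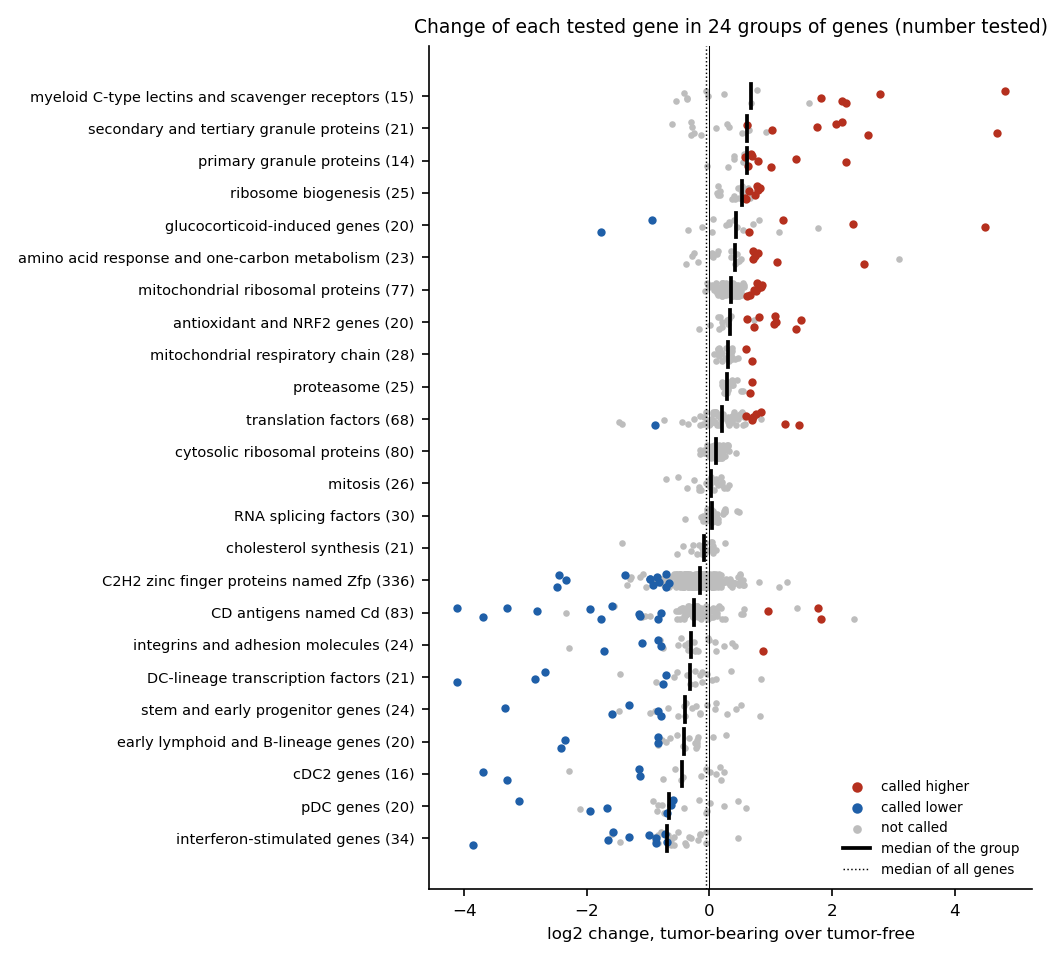
Log2 change with the tumor (horizontal axis) of each tested member of 24 gene groups in CDPs, with the number tested in parentheses; red points were called higher, blue lower and gray not called, black bars give the median of each group and the dotted line that of all genes. The listed interferon-stimulated genes held 9 falls and 0 rises of 34, and the primary granule list 8 rises and 0 falls of 14.

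Dendritic cell genes with a call were nearly all lower. Of 21 transcription factors of the lineage, 5 were called lower and 0 higher (median -0.32), and besides Mycl and Runx2 these were Tcf4, Spib and Bcl11a, all of which act in pDCs and some in B cells. Tcf4, the E protein that sets the pDC fate, read 1.17, 1.23, 0.96 and 1.39 on the tumor-free arrays and 0.62, -0.0067, 0.31 and 0.75 on the tumor-bearing arrays. Tcf4 changed by -0.71 ± 0.18 (SE, adjusted p = 0.0387). Spib, an Ets factor, read -1.5, -2.39, -1.64 and -0.78 on the tumor-free arrays and -4.08, -5.26, -5.53 and -3.99 on the tumor-bearing arrays. Spib changed by -2.69 ± 0.43 (SE, adjusted p = 0.00779). Bcl11a, a zinc finger repressor, changed by -0.75 ± 0.16 (adjusted p = 0.0240). The factors most tied to cDCs did not pass: Irf8 changed by -0.24 ± 0.10 (adjusted p = 0.167), Zbtb46 by -0.87 ± 0.27 (adjusted p = 0.0831) and Batf3 by -0.36 ± 0.17 (adjusted p = 0.223). For these factors, the 5 calls lower moved by over 1.5 times when arrays were dropped: leaving out tumor-free sample 2, 3, 4 or 5 left 3, 1, 3 and 3, and leaving out tumor-bearing sample 3 or 4 left 3 and 2. Without the slide term, the count was 3. Among the pDC-related factors, no call held in all 8 fits that left out an array. Omitting tumor-free samples 2, 3, 4 and 5 in turn lost 2, 3, 1 and 1 and leaving out tumor-bearing samples 3, 4 and 5 in turn lost 1, 2 and 1. Of the 3, 1 was lost without the slide term.

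Of 20 pDC genes tested, 6 were called lower and 0 higher, 8 had groups that did not overlap in the lower direction, and the median was -0.66. The mean over the group, set to 0 for tumor-free samples, lay at -0.289 to 0.239 on the tumor-free arrays and -0.987 to -0.34 on the tumor-bearing arrays, and the difference was -0.70, -0.66 and -0.69 on slides 2, 3 and 4. Bst2, the membrane tether that marks mouse pDCs and is itself induced by interferon, read 1.97, 1.91, 1.91 and 1.89 on the tumor-free arrays and 1.44, 0.81, 1.17 and 1.51 on the tumor-bearing arrays. Bst2 changed by -0.70 ± 0.14 (SE, adjusted p = 0.0167). Tlr9, the sensor of CpG DNA, read 2.44, 2.69, 2.48 and 1.91 on the tumor-free arrays and 2.05, 2.4, 1.6 and 2.12 on the tumor-bearing arrays. Tlr9 changed by -0.59 ± 0.15 (SE, adjusted p = 0.0400). The receptor phosphatase Ptprs changed by -0.63 ± 0.11 (adjusted p = 0.0101). Tlr9 and Ptprs thus changed by little more than the 1.5-fold threshold. Larger falls were those of Cd300c, an immunoglobulin-type receptor of the CD300 family, and Pdzd4, which changed by -1.94 ± 0.32 and -1.67 ± 0.18 (adjusted p = 0.00879 and 0.00194). Across pDC genes, the 6 calls lower moved by over 1.5 times when arrays were dropped: leaving out tumor-free sample 3 left 2, and leaving out tumor-bearing sample 4 left 3. The pDC median was -0.38 without the slide term. By gene, the call of Pdzd4 held whichever array was left out. Fits without tumor-free samples 3, 4 and 5 in turn lost 4, 1 and 1 and leaving out tumor-bearing samples 2, 3, 4 and 5 in turn lost 1, 2, 3 and 1. Of the 5, 2 were lost without the slide term.

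Among 16 cDC2 genes, 4 were called lower and 0 higher (median -0.45), and 3 of these are neighbors on chromosome 8. Between positions 3716182 and 3940282 (mm9), the 5 consecutive tested genes Clec4g, Cd209a, Cd209e, Cd209d and Cd209c were all called lower. Cd209a (chr8:3743481-3743540) read 1.71, 1.25, 1.72 and 1.53 on the tumor-free arrays and -0.80, -2.85, -2.55 and -0.60 on the tumor-bearing arrays, and Cd209d read 1.23, 1.22, 1.03 and 1.19 on the tumor-free arrays and 0.32, 0.48, -0.28 and 0.44 on the tumor-bearing arrays. Cd209d changed by -1.14 ± 0.21 (SE, adjusted p = 0.0139). Clec4g, the liver and lymph node sinusoidal lectin of the same gene block, changed by -2.02 ± 0.39, and Cd209c, not well above background on any tumor-bearing array, was at least 2.08-fold lower (adjusted p = 0.0271). Members of the Cd209 family are close in sequence, and cross-hybridization between their probes was not tested, which leaves the split between them uncertain. Outside the block, Cd7 changed by -1.13 ± 0.29 (adjusted p = 0.0417), and of 12 cDC1 genes 1 was called higher, the B and T lymphocyte attenuator Btla (0.77 ± 0.20, adjusted p = 0.0426), and 0 lower; Clec9a, the cDC1 lectin that senses dead cells, read 1.06, 0.95, 0.47 and 1.26 on the tumor-free arrays and -1.54, -4.06, -3.63 and -0.83 on the tumor-bearing arrays, groups that did not overlap, yet with its spread it missed the threshold (log2 change -3.34 ± 0.96 (SE), adjusted p = 0.0637). In the cDC2 group, the 4 calls lower moved by over 1.5 times when arrays were dropped: leaving out tumor-bearing sample 4 left 2. The fit with no slide term called 2. The cDC2 median was -0.24 without tumor-free sample 4, -0.25 without tumor-bearing sample 4, -0.12 without the slide term, -0.19 with normexp background correction, -0.23 with quantile normalization, -0.06 over probes above background on all 16 arrays and -0.26 in the deposited values. Within these genes, the call of Cd209a held whichever array was left out. Leaving out tumor-free samples 2, 3, 4 and 5 in turn lost 1, 4, 3 and 2 and leaving out tumor-bearing samples 2, 3, 4 and 5 in turn lost 2, 2, 5 and 1. Of the 6, 3 were lost without the slide term.

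The listed interferon-stimulated genes were lower as a group: 9 of 34 were called lower, 0 were called higher, and 1 had a change above 0. Their median was -0.69, and the middle bin by brightness, in which the group lies, had a median of -0.095. The counts hold for this list only, which leaves out Gbp7 and Ifitm1. Ifitm1, an interferon-induced gene by its name, was called higher (2.28 ± 0.24, adjusted p = 0.0013), as was its second probe. The mean over the group lay at -0.123 to 0.0939 on the tumor-free arrays and -1.07 to -0.543 on the tumor-bearing arrays, with differences of -0.99, -0.64 and -0.70 on slides 2, 3 and 4. Ifit3, an RNA-binding antiviral protein, read 0.21, -4.23, -0.91 and -1.67 on the tumor-free arrays and -7.19, -6.78, -5.66 and -3.91 on the tumor-bearing arrays. Ifit3 changed by -3.86 ± 0.49 (SE, adjusted p = 0.00329). Oas3, which makes the activator of RNase L, read 0.27, -0.19, 0.081 and 0.85 on the tumor-free arrays and -0.82, -1.77, -1.41 and -0.69 on the tumor-bearing arrays. Oas3 changed by -1.31 ± 0.31 (SE, adjusted p = 0.0336). For Oas3 no tumor-bearing array reached the tumor-free range, while for Ifit3 tumor-free sample 3 lay within the tumor-bearing range, and each tumor-bearing array stood below the tumor-free array of its slide. Stat2, a partner of IRF9 in the interferon response, read 0.061, -0.35, 0.14 and 0.92 on the tumor-free arrays and -1.04, -1.21, -0.80 and -0.71 on the tumor-bearing arrays. Stat2 changed by -0.87 ± 0.12 (SE, adjusted p = 0.00371). Isg15, a ubiquitin-like modifier, read -1.26, -1.32, -1.54 and -1.81 on the tumor-free arrays and -2.45, -1.81, -2.02 and -1.79 on the tumor-bearing arrays, and Usp18, the protease that removes it, 0.91, 0.76, 1.39 and 0.62 on the tumor-free arrays and -0.32, -1.72, -0.22 and -0.66 on the tumor-bearing arrays (adjusted p = 0.0348 and 0.0254). The dynamin-like GTPase Mx2 changed by -1.65 ± 0.37, the immunity-related GTPase Irgm1 by -0.98 ± 0.18 and the DNA-binding Ifi203 by -0.87 ± 0.14. Irf7 (-1.46 ± 0.65, adjusted p = 0.201) did not pass.

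Related families moved likewise in part. Of 50 TRIM proteins, 3 were called lower, Trim34a (-1.12 ± 0.20), Trim30d (-0.90 ± 0.22) and Trim12c (-0.69 ± 0.093), all of interferon-inducible subfamilies. Of 13 guanylate-binding and immunity-related GTPases, Tgtp2 (-1.76 ± 0.29) and Irgm1 were called lower and Gbp7 (1.15 ± 0.20, adjusted p = 0.00973) higher, against a group median of -0.71. None of 13 receptor chains for IL-6, IL-10 or interferon was called lower, and 1, Il22ra2, a soluble IL-22-binding protein, was called higher: it read -5.23, -7.73, -7.34 and -7.6 on the tumor-free arrays and -3.86, -1.75, -2.74 and -2.83 on the tumor-bearing arrays, well above background on 1 tumor-free array and all tumor-bearing ones (log2 change 4.25 ± 0.52 (SE), adjusted p = 0.00316). Over interferon-stimulated genes, the 9 calls lower moved by over 1.5 times when arrays were dropped: leaving out tumor-free sample 3 left 2, and leaving out tumor-bearing sample 4 or 5 left 3 and 5. Dropping the slide term gave a count of 4. For TRIM proteins, the 3 calls lower moved by over 1.5 times when arrays were dropped: leaving out tumor-free sample 3 left 1, and leaving out tumor-bearing sample 4 left 1. The median of the GTPases was -0.35 without the slide term and -0.46 with normexp background correction. Gene by gene, the calls of Ifit3, Stat2, Trim12c and Il22ra2 held whichever array was left out. Dropping tumor-free samples 2, 3, 4 and 5 in turn lost 2, 9, 5 and 4 and leaving out tumor-bearing samples 3, 4 and 5 in turn lost 2, 8 and 5. Of the 14, 7 were lost without the slide term.

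The promoters of these genes are shown because the interferon-stimulated response element (ISRE, searched as GAAANNGAAA on both strands) was found in 50% of those of the interferon-stimulated list, 12 of 24, against 3.32% of 12938 promoters of tested genes, 7.14% of those of genes called lower and 3.65% of those called higher. The promoter was the window from 250 bases before to 50 after the start in RefSeq (build GRCm38.p6). The element is part of how interferon-stimulated genes are known, and its presence in the list is a description. In the stretches below, written 5' to 3' on the strand of the gene, capitals mark the match: Ifit3 at chr19:34583353-34583402 on the plus strand, Oas3 at chr5:120777705-120777754 on the minus strand, Irgm1 at chr11:48871421-48871470 on the minus strand, Stat2 at chr10:128270256-128270305 on the plus strand and Isg15 at chr4:156200867-156200916 on the minus strand.
Ifit3: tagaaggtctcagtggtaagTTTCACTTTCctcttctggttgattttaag
Oas3: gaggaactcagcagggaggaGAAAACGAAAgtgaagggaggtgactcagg
Irgm1: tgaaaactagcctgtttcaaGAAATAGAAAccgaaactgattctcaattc
Stat2: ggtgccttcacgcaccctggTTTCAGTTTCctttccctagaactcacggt
Isg15: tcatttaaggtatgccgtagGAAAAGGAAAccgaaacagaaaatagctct
These 5 were chosen among list members already called lower that hold a match, so their falls say nothing about the element. Their changes ran from -0.72 to -3.86 on the log2 scale. The match began 222 to 30 bases before the start.

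Genes of stem cells and early progenitors were lower: 5 of 24 were called lower and 0 higher (median -0.39). Kit, one of the receptors used to sort progenitors, read -0.83, -0.87, -1.33 and -0.66 on the tumor-free arrays and -2.68, -2.2, -2.42 and -1.77 on the tumor-bearing arrays. Kit changed by -1.31 ± 0.19 (SE, adjusted p = 0.00500). Every tumor-bearing array lay below every tumor-free array. Cd34, a sialomucin of progenitors and endothelium, changed by -0.79 ± 0.21 (adjusted p = 0.0486), Cd27, a TNF receptor family member of multipotent progenitors, by -1.6 ± 0.24 (adjusted p = 0.00579) and Erg, an Ets factor of stem cells, by -3.34 ± 0.56 (adjusted p = 0.00880). Of 20 early lymphoid and B-lineage genes, 4 were called lower and 0 higher (median -0.42): Bach2, the HMG-box factor Sox4 (-0.84 ± 0.21), the B cell coreceptor Cd72 (-0.83 ± 0.17) and the surrogate light chain-related Vpreb3, which was above background on 3 tumor-free arrays and 0 tumor-bearing ones. In a wider NK-type group, 2 of 16 were called lower, the CD94 receptor Klrd1 (-4.15 ± 0.61, adjusted p = 0.00531) and the adhesion receptor Cd96 (-4.13 ± 0.93, adjusted p = 0.0273). In the progenitor group, the 5 calls lower moved by over 1.5 times when arrays were dropped: leaving out tumor-free sample 2, 3, 4 or 5 left 3, 2, 3 and 3, and leaving out tumor-bearing sample 4 or 5 left 2 and 3. With slides ignored, the count was 3. The progenitor median was -0.16 with normexp background correction, -0.24 with quantile normalization, -0.22 with no filter on dim probes and -0.20 in the deposited values. In the lymphoid group, the 4 calls lower moved by over 1.5 times when arrays were dropped: leaving out tumor-free sample 2, 3 or 5 left 2, 1 and 2, and leaving out tumor-bearing sample 3 or 4 left 2 and 2. A fit that ignored slides called 1. The lymphoid median was -0.26 without tumor-free sample 4, -0.27 without tumor-bearing sample 4, -0.21 without the slide term, -0.25 with normexp background correction and -0.23 with no filter on dim probes. By gene, the calls of Kit, Cd27 and Klrd1 held whichever array was left out. Omitting tumor-free samples 2, 3, 4 and 5 in turn lost 4, 6, 3 and 4 and leaving out tumor-bearing samples 2, 3, 4 and 5 in turn lost 1, 3, 5 and 4. Of the 9, 4 were lost without the slide term.

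Markers of red cells and platelets had negative medians. The 12 erythroid markers had a median change of -1.04, 1 called lower, Hba-a1, and their mean ran over -1.0 to 0.662 on the tumor-free arrays and -1.13 to -0.596 on the tumor-bearing arrays. Hba-a1 and Hba-a2, near-identical alpha globin genes whose probes cannot be told apart here, were both called lower (-1.58 ± 0.31 and -1.43 ± 0.34). The 10 megakaryocyte markers had a median of -0.49 with 0 called, and a range of -0.417 to 0.215 on the tumor-free arrays and -1.29 to 0.317 on the tumor-bearing arrays. The globin Hbb-b1 read -0.93, -2.43, -1.45 and -3.35 on the tumor-free arrays and -5.31, -2.97, -3.73 and -3.43 on the tumor-bearing arrays, and Klf1, the erythroid master regulator, was well above background on 1 tumor-free array and 0 tumor-bearing ones. The tumor-bearing and tumor-free arrays overlapped for both marker lists, the megakaryocyte mean differed by -0.875, 0.317 and -0.233 on slides 2, 3 and 4, and their part in the falls of the progenitor genes was not tested. The erythroid median was -0.46 with normexp background correction and -0.65 over probes above background on all 16 arrays. The megakaryocyte median was -0.32 without tumor-free sample 5, -0.77 without tumor-bearing sample 5, -0.24 without the slide term, -0.15 with normexp background correction, -0.31 with quantile normalization, -0.31 in the deposited values and -0.31 in the CDP arrays alone.

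A number of surface receptors of immune cells were lower. Of 27 genes of the TNF and TNF receptor superfamily, 5 were called lower and 1 higher. Tnfsf8, the CD30 ligand, changed by -1.18 ± 0.23, Tnfsf15, a costimulatory ligand, by -1.5 ± 0.38, and Tnfrsf18, known as GITR, by -0.91 ± 0.18 (adjusted p = 0.0165, 0.0436 and 0.0167). Tnfrsf14, the herpesvirus entry mediator, read 1.77, 1.97, 2.1 and 1.89 on the tumor-free arrays and 1.6, 1.34, 1.16 and 1.51 on the tumor-bearing arrays (log2 change -0.59 ± 0.16 (SE), adjusted p = 0.0478), while its ligand Tnfsf14, also named LIGHT, read -1.45, -1.87, -1.23 and -1.47 on the tumor-free arrays and -0.83, -0.63, -0.15 and -1.21 on the tumor-bearing arrays. Tnfsf14 changed by 0.90 ± 0.21 (SE, adjusted p = 0.0336). Ligand and receptor were thus called in opposite directions, and Btla, also a partner of Tnfrsf14, was called higher. The calls of Tnfrsf14, Tnfsf14 and Btla each held in only 2 of the 8 fits that left out an array. All of them were lost without the slide term. Of 83 genes with a CD name, 11 were called lower and 3 higher (median -0.26), and the 3 rises were Cd300lf (1.83 ± 0.23), Cd302 (1.78 ± 0.17) and the tetraspanin Cd81 (0.96 ± 0.12). Integrins and adhesion molecules held 4 falls, the beta3 integrin Itgb3 (-1.71 ± 0.38), Alcam (-1.1 ± 0.27), Pecam1 (-0.83 ± 0.18) and Cd34, and 1 rise, Itgb5 (0.87 ± 0.20), among 24. Itgb3 and Pecam1 are also known from platelets, whose markers had a negative median. For the TNF families, the 5 calls lower moved by over 1.5 times when arrays were dropped: leaving out tumor-free sample 3, 4 or 5 left 1, 2 and 3, and leaving out tumor-bearing sample 3, 4 or 5 left 3, 1 and 3. Without the slide term, the count was 2. For CD-named genes, the 11 calls lower moved by over 1.5 times when arrays were dropped: leaving out tumor-free sample 3, 4 or 5 left 4, 6 and 7, and leaving out tumor-bearing sample 4 left 4. The fit with no slide term called 6. The CD-named median was -0.16 without tumor-bearing sample 4, -0.10 without the slide term and -0.14 with normexp background correction. For adhesion genes, the 4 calls lower moved by over 1.5 times when arrays were dropped: leaving out tumor-free sample 2, 3, 4 or 5 left 2, 0, 1 and 0, and leaving out tumor-bearing sample 3, 4 or 5 left 2, 0 and 2. Dropping the slide term gave a count of 2. By gene, the calls of Cd300lf, Cd302 and Cd81 held whichever array was left out. Fits without tumor-free samples 2, 3, 4 and 5 in turn lost 2, 8, 7 and 6 and leaving out tumor-bearing samples 2, 3, 4 and 5 in turn lost 2, 6, 9 and 4. Of the 12, 7 were lost without the slide term. Cd300lf had a further probe that was not called, with a change of 0.25.

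Rises were frequent among genes of granulocyte and monocyte precursors. Of 14 genes on the primary granule list, 8 were called higher and 0 lower, and 13 had a change above 0 (median 0.61, in the brightest bin, whose median was 0.082). The called members include a tetraspan protein, an elastase inhibitor, a glutathione transferase and a vesicle adaptor subunit. The share is therefore not one of granule contents alone. The mean over the group lay at -0.285 to 0.222 on the tumor-free arrays and 0.552 to 0.894 on the tumor-bearing arrays, and differed by 0.67, 0.49 and 1.04 on slides 2, 3 and 4. Elane, neutrophil elastase, read 3.08, 2.64, 3.35 and 2.86 on the tumor-free arrays and 4.0, 4.56, 3.95 and 3.88 on the tumor-bearing arrays. Elane changed by 1.01 ± 0.20 (SE, adjusted p = 0.0165), or 2.02-fold. Ms4a3, a tetraspan protein of granulocyte-monocyte progenitors, read 0.61, 0.54, 1.29 and 1.37 on the tumor-free arrays and 2.71, 3.51, 3.68 and 2.68 on the tumor-bearing arrays. Ms4a3 changed by 2.22 ± 0.25 (SE, adjusted p = 0.00202), or 4.67-fold. For both genes every tumor-bearing array stood above every tumor-free array. Proteinase 3, Prtn3, changed by 0.70 ± 0.13, the protease-activating cathepsin Ctsc by 1.41 ± 0.19, the granule proteoglycan Srgn by 0.68 ± 0.13 and the elastase inhibitor Serpinb1a by 0.63 ± 0.16. The remaining calls of the list were the glutathione transferase Gstm1 (0.80 ± 0.19) and the vesicle adaptor subunit Ap3s1 (0.59 ± 0.12). For primary granule genes, the 8 calls higher moved by over 1.5 times when arrays were dropped: leaving out tumor-free sample 3 or 4 left 2 and 4, and leaving out tumor-bearing sample 2 or 4 left 5 and 4. With slides ignored, the count was 3. Gene by gene, the calls of Ms4a3 and Ctsc held whichever array was left out, while that of Gstm1 held in 0 of the 8 fits. Leaving out tumor-free samples 2, 3, 4 and 5 in turn lost 2, 6, 4 and 2 and leaving out tumor-bearing samples 2, 3, 4 and 5 in turn lost 3, 2, 4 and 1. Of the 8, 5 were lost without the slide term. Ap3s1 had a further probe that was not called, with a change of 0.19.

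Secondary and tertiary granule genes held 7 rises and 0 falls among 21 (median 0.62). Besides Wfdc21 and Lcn2 these were Chil3, a chitinase-like lectin (2.06 ± 0.54), Mmp8, neutrophil collagenase (1.76 ± 0.26), the hemoglobin-binding Hp (1.02 ± 0.15), the receptor Trem3 (2.17 ± 0.26) and Ltb4r1, the leukotriene B4 receptor (0.62 ± 0.16). Chil3 lies beside Chil4, which was also called higher, at chr3:105950485-105950544 (mm9). Genes that define mature neutrophils were not called: Ltf read -1.88, -2.77, -4.48 and -3.0 on the tumor-free arrays and -4.14, -3.57, -3.12 and -3.11 on the tumor-bearing arrays, and Camp -0.42, -1.87, -4.35 and -2.86 on the tumor-free arrays and -3.89, -2.88, -2.83 and -2.51 on the tumor-bearing arrays, and Ngp was not called either. The 10 neutrophil markers had a median change of -0.14, with 2 called higher, S100a8 and Mmp8, and their mean overlapped between groups (-0.78 to 0.964 on the tumor-free arrays and 0.17 to 0.732 on the tumor-bearing arrays). The part of neutrophils among the sorted cells in these rises was not tested beyond these values. In this granule group, the count of 7 called higher moved by less than 1.5 times whichever array was left out. The median of the group was 0.29 without tumor-free sample 3. By gene, the calls of Trem3, Mmp8 and Hp held whichever array was left out. Dropping tumor-free samples 2, 3, 4 and 5 in turn lost 1, 3, 2 and 3 and leaving out tumor-bearing samples 2, 3, 4 and 5 in turn lost 3, 3, 3 and 3. Of the 6, 3 were lost without the slide term.

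Pattern receptors of myeloid cells held 5 rises and 0 falls among 15 C-type lectins and related receptors. Clec4d, which pairs with Mincle and lies next to its gene, read -3.83, -5.38, -3.98 and -2.89 on the tumor-free arrays and -2.0, -2.17, -2.24 and -2.17 on the tumor-bearing arrays. Clec4d changed by 2.23 ± 0.29 (SE, adjusted p = 0.00347). Clec5a, a DAP12-coupled lectin, read -5.32, -6.11, -3.81 and -6.16 on the tumor-free arrays and -2.67, -2.39, -1.69 and -3.09 on the tumor-bearing arrays. Clec5a changed by 2.79 ± 0.54 (SE, adjusted p = 0.0160). Of 12 Fc receptors and adaptors (median 0.093), 2 were called, both higher and both for IgG: Fcgr1 changed by 1.04 ± 0.26 and Fcgr3 by 0.88 ± 0.18 (adjusted p = 0.0390 and 0.0180). Of 29 monocyte and macrophage genes, 4 were called higher, with Ms4a6d (2.1 ± 0.40) and the lipid receptor Trem2 (1.1 ± 0.21) beside the Fc receptors, and 1 lower, the hemoglobin scavenger receptor Cd163 (-1.78 ± 0.45). Ms4a6d is a chromosomal neighbor of Ms4a3. Among 25 transcription factors of myeloid cells, Gfi1, the repressor needed for granulocytes, changed by 1.82 ± 0.34 and Id1, an inhibitor of E proteins, by 2.01 ± 0.31 (adjusted p = 0.0150 and 0.00669), while Cebpb changed by 0.75 ± 0.21 (adjusted p = 0.0613) and was not called. Toll-like receptors split, with Tlr13 (1.29 ± 0.32) and the adaptor Myd88 (1.03 ± 0.20) called higher and Tlr12 (-1.98 ± 0.39) and Tlr9 lower among 23. For the lectin group, the count of 5 called higher moved by less than 1.5 times whichever array was left out. The lectin median, 0.69, was 0.20 without tumor-free sample 3, 0.32 without tumor-free sample 4, 0.42 without tumor-bearing sample 5, 0.41 with normexp background correction, 0.086 with no filter on dim probes and -0.22 over probes above background on all 16 arrays. For monocyte genes, the 4 calls higher moved by over 1.5 times when arrays were dropped: leaving out tumor-free sample 3 left 0, and leaving out tumor-bearing sample 4 left 1. For Fc receptors, the 2 calls higher moved by over 1.5 times when arrays were dropped: leaving out tumor-free sample 3, 4 or 5 left 0, 1 and 1, and leaving out tumor-bearing sample 2, 4 or 5 left 1, 0 and 1. A fit that ignored slides called 1. By gene, the call of Clec4d held whichever array was left out. Omitting tumor-free samples 3, 4 and 5 in turn lost 11, 4 and 3 and leaving out tumor-bearing samples 2, 3, 4 and 5 in turn lost 2, 2, 9 and 2. Of the 12, 4 were lost without the slide term.

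In cytokine signaling, feedback genes were called in both directions. Of 23 STAT, SOCS and PIM genes, 4 were called higher and 2 lower (median -0.029). The IkappaB-family coactivator Bcl3 changed by 1.47 ± 0.33, the serine kinase Pim1 by 1.36 ± 0.29 and the tyrosine kinase Jak3 by 0.86 ± 0.18 (adjusted p = 0.0292, 0.0226 and 0.0187). Together with Socs3 these are genes that STAT3 or STAT5 are known to induce, except Jak3, a kinase of common gamma chain receptors; that chain, Il2rg, was called higher too (0.70 ± 0.17, adjusted p = 0.0386). The falls were Stat2 and Socs5 (-1.32 ± 0.33). Of 10 IL-1 family genes, Il1r2 and the IL-18 receptor chain Il18rap (1.78 ± 0.28, adjusted p = 0.00695) were called higher, and of 22 NF-kappaB subunits and targets, 2 were called higher, Bcl3 and Sod2, and 2 lower, Nfkb1 (-0.83 ± 0.14) and Nfkbie (-1.49 ± 0.25), with a median of -0.054. Of 50 interleukins and their receptors, 4 were called higher, Il1r2, Il22ra2, Il18rap and Il2rg, and 3 lower, Il12rb2 (-0.98 ± 0.20), Il17rb (-1.63 ± 0.42) and Il31ra (-1.37 ± 0.30). Glucocorticoid-induced genes held 4 rises and 2 falls among 20 (median 0.43), with the cochaperone Fkbp5 (0.65 ± 0.14, adjusted p = 0.0227) and the factor Klf9 (1.2 ± 0.26, adjusted p = 0.0226) beside Il1r2 and Mt1, and with Cd163 and Sesn1 (-0.93 ± 0.23) lower. For STAT-related genes, the 4 calls higher moved by over 1.5 times when arrays were dropped: leaving out tumor-free sample 3 or 4 left 2 and 1, and leaving out tumor-bearing sample 3 or 4 left 2 and 1. Without the slide term, the count was 2. For glucocorticoid-induced genes, the 4 calls higher moved by over 1.5 times when arrays were dropped: leaving out tumor-free sample 3 or 5 left 1 and 2, and leaving out tumor-bearing sample 5 left 2. The glucocorticoid median was 0.25 without tumor-free sample 3. For interleukins and receptors, the 4 calls higher moved by over 1.5 times when arrays were dropped: leaving out tumor-free sample 3 left 2. By gene, the call of Il18rap held whichever array was left out. Fits without tumor-free samples 2, 3, 4 and 5 in turn lost 5, 11, 10 and 8 and leaving out tumor-bearing samples 2, 3, 4 and 5 in turn lost 3, 7, 12 and 6. Of the 14, 8 were lost without the slide term.

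The STAT motif, or GAS element, searched as TTCNNNGAA on both strands, was present in 12.2% of 329 promoters of genes called higher, 6.82% of 308 promoters of genes called lower and 7.46% of all. Among promoters of the interferon-stimulated list, whose called members were all lower, the share was 20.8%, 5 of 24. Il1r2 and Socs3 are 2 of the 4 largest rises named among genes measured in both groups without overlap. Their windows are shown with the match in capitals, RefSeq, GRCm38.p6, 5' to 3': Il1r2 at chr1:40085962-40086010 on the plus strand and Socs3 at chr11:117969492-117969540 on the minus strand.
Il1r2: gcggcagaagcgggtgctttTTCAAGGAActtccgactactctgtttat
Socs3: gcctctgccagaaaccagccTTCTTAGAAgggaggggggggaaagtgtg
The matches began 111 and 154 bases before the start, and Tgm1 and Pla2g7 carried one as well. A match is no evidence of binding.

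Of 20 antioxidant enzymes, 8 were called higher and 0 lower, and 19 had a change above 0 (median 0.34). Gsr, glutathione reductase, read 2.36, 1.91, 2.4 and 2.04 on the tumor-free arrays and 3.34, 3.35, 3.36 and 3.18 on the tumor-bearing arrays. Gsr changed by 1.05 ± 0.14 (SE, adjusted p = 0.00371), or 2.08-fold. Sod2, the mitochondrial superoxide dismutase, read 2.51, 2.2, 2.49 and 2.45 on the tumor-free arrays and 2.94, 2.91, 3.55 and 2.84 on the tumor-bearing arrays. Sod2 changed by 0.72 ± 0.13 (SE, adjusted p = 0.0116). The group took in both arms of thiol defense, the glutathione arm with Gclm, a subunit of the rate-limiting enzyme of glutathione synthesis (1.42 ± 0.28), Gpx3 (1.07 ± 0.18) and Mgst1 (1.08 ± 0.28), and the thioredoxin arm with Txnrd1 (0.80 ± 0.14) and the sulfiredoxin Srxn1 (1.49 ± 0.31). In a catalogue of 671 Reactome sets of 15 to 200 tested genes, the set for detoxification of reactive oxygen species had the highest share called higher, 6 of 22 (27.3%): Gpx3, Gsr, Sod2, Prdx6, Ero1a and Prdx3. The phagocyte NADPH oxidase, a source of such species, had 0 of 10 called higher and 0 lower. Iron and heme genes held 3 rises among 21, Lcn2, Hp and Alas1, the first enzyme of heme synthesis (0.68 ± 0.13). For antioxidant genes, the 8 calls higher moved by over 1.5 times when arrays were dropped: leaving out tumor-free sample 3 or 4 left 1 and 4, and leaving out tumor-bearing sample 3 or 4 left 5 and 2. The fit with no slide term called 3. By gene, the call of Gsr held whichever array was left out, while that of Mgst1 held in 0 of the 8 fits. Leaving out tumor-free samples 2, 3, 4 and 5 in turn lost 1, 8, 5 and 2 and leaving out tumor-bearing samples 2, 3, 4 and 5 in turn lost 2, 3, 7 and 1. Of the 9, 5 were lost without the slide term. Alas1 had a further probe that was not called, with a change of 0.077.

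Lipid mediator genes held 4 rises and 1 fall among 18. Pla2g4a, the cytosolic phospholipase that frees arachidonate, changed by 1.01 ± 0.18 (adjusted p = 0.0109), and Pla2g7, which inactivates platelet-activating factor, by 2.49 ± 0.58 (adjusted p = 0.0318). Among receptors, Ltb4r1 and the prostaglandin D2 receptor Ptgdr2 (0.93 ± 0.17) were called higher, and the prostaglandin E2 receptor Ptger4 lower (-1.6 ± 0.27). The nucleotide receptors P2ry1 (1.5 ± 0.29) and P2ry2 (1.05 ± 0.26) rose, and among lysolipid receptors S1pr3 (-0.98 ± 0.15) and Lpar5 (-0.73 ± 0.18) fell. Matrix genes held 3 rises of 21: Mmp8, Adam9 (1.01 ± 0.20) and the metalloprotease inhibitor Timp1, which read -7.49, -7.58, -7.37 and -7.56 on the tumor-free arrays and -4.52, -5.18, -4.41 and -5.02 on the tumor-bearing arrays and was at least 1.43-fold higher (adjusted p = 0.00119). For eicosanoid genes, the 4 calls higher moved by over 1.5 times when arrays were dropped: leaving out tumor-free sample 3 or 5 left 0 and 2, and leaving out tumor-bearing sample 3, 4 or 5 left 2, 0 and 2. Dropping the slide term gave a count of 1. By gene, the calls of S1pr3 and Timp1 held whichever array was left out. Dropping tumor-free samples 2, 3, 4 and 5 in turn lost 1, 8, 4 and 2 and leaving out tumor-bearing samples 2, 3, 4 and 5 in turn lost 2, 3, 8 and 1. Of the 10, 6 were lost without the slide term.

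Ribosome biogenesis genes had changes above 0 in every member, most of them not called. All 25 ribosome biogenesis genes had a change above 0 (median 0.53, while the next to brightest bin had 0.01), and 7 were called. The group mean lay at -0.0278 to 0.0337 on the tumor-free arrays and 0.134 to 0.92 on the tumor-bearing arrays, and the difference was 0.89, 0.16 and 0.43 on slides 2, 3 and 4. Polr1a, the large subunit of RNA polymerase I, read -1.31, -1.08, -1.38 and -0.58 on the tumor-free arrays and -0.58, -0.55, 0.12 and -0.62 on the tumor-bearing arrays. Polr1a changed by 0.83 ± 0.19 (SE, adjusted p = 0.0287). Its partner Polr1b changed by 0.65 ± 0.17. Mybbp1a, a nucleolar regulator, read 0.45, 0.68, 0.55 and 1.24 on the tumor-free arrays and 1.15, 1.32, 1.8 and 1.11 on the tumor-bearing arrays. Mybbp1a changed by 0.79 ± 0.13 (SE, adjusted p = 0.00818). Tumor-free sample 5, alone of the CDP samples on its slide, reached the tumor-bearing range for both genes. The others called were the nucleolar proteins Gnl3 (0.77 ± 0.19), Bysl (0.74 ± 0.19), nucleolin, Ncl (0.60 ± 0.15), and the helicase Ddx21 (0.59 ± 0.12). Cytosolic ribosomal proteins themselves had 0 called of 80 and a median of 0.11, near that of the brightest bin. For ribosome biogenesis, the 7 calls higher moved by over 1.5 times when arrays were dropped: leaving out tumor-free sample 3, 4 or 5 left 1, 2 and 2, and leaving out tumor-bearing sample 3, 4 or 5 left 1, 1 and 12. With slides ignored, the count was 0. By gene, the call of Mybbp1a held whichever array was left out. Omitting tumor-free samples 2, 3, 4 and 5 in turn lost 3, 6, 5 and 5 and leaving out tumor-bearing samples 2, 3, 4 and 5 in turn lost 3, 6, 6 and 2. Of the 7, 7 were lost without the slide term. Polr1a had a further probe that was not called, with a change of 0.41.

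Amino acid and one-carbon genes held 6 rises and 0 falls among 23 (median 0.42). Asns read -2.43, -1.99, -2.2 and -4.63 on the tumor-free arrays and -0.24, 0.20, 0.27 and -0.24 on the tumor-bearing arrays, and Phgdh, the first enzyme of serine synthesis, 1.58, 1.67, 1.77 and 1.34 on the tumor-free arrays and 2.3, 2.54, 2.81 and 2.25 on the tumor-bearing arrays (log2 change 0.80 ± 0.12 (SE), adjusted p = 0.00645). Tumor-free sample 5 read lowest for Asns, by a wide gap to the other tumor-free samples. Slc7a5 and Slc3a2, the 2 chains of the leucine transporter LAT1, changed by 1.1 ± 0.22 and 0.71 ± 0.18, and the mitochondrial folate enzymes Shmt2 and Mthfd1l by 0.74 ± 0.12 and 0.71 ± 0.12. Of 68 translation factors, 7 were called higher, among them Eif2b1 (0.69 ± 0.14) and Eif2b3 (1.24 ± 0.23) of the exchange factor eIF2B and the translation repressor Eif4ebp1 (0.60 ± 0.12), and 1 lower, Eef2k, the kinase that inhibits elongation (-0.88 ± 0.17). For amino acid genes, the 6 calls higher moved by over 1.5 times when arrays were dropped: leaving out tumor-free sample 3 left 3, and leaving out tumor-bearing sample 4 left 3. The amino acid median was 0.28 without tumor-bearing sample 4. For translation factors, the 7 calls higher moved by over 1.5 times when arrays were dropped: leaving out tumor-free sample 3 or 4 left 1 and 4, and leaving out tumor-bearing sample 4 left 2. A fit that ignored slides called 4. By gene, the calls of Asns, Phgdh and Shmt2 held whichever array was left out. Fits without tumor-free samples 2, 3, 4 and 5 in turn lost 1, 7, 3 and 2 and leaving out tumor-bearing samples 2, 3 and 4 in turn lost 2, 1 and 7. Of the 10, 3 were lost without the slide term.

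Mitochondrial and proteasome genes had changes above 0 in nearly every member, and few were called. Of 77 mitochondrial ribosomal proteins, 73 had a change above 0 and 8 were called higher, 0 lower (median 0.36). Mrps28 read 1.55, 1.58, 1.79 and 1.47 on the tumor-free arrays and 2.39, 2.33, 2.74 and 2.3 on the tumor-bearing arrays. Mrps28 changed by 0.78 ± 0.12 (SE, adjusted p = 0.00596). All 28 respiratory chain genes were above 0, with a median of 0.30 and 2 called, cytochrome c1, Cyc1 (0.60 ± 0.087, adjusted p = 0.00531), and Ndufa8 of complex I (0.70 ± 0.14, adjusted p = 0.0168). All 25 proteasome genes were above 0 as well (median 0.29); 2 were called, Psmd14 (0.70 ± 0.11) and Psmd1 (0.66 ± 0.14), both of the regulatory particle, and for 12 the groups did not overlap. These groups lie in the brightest bin, whose median change was 0.082. Glycolysis and hypoxia genes held 3 rises of 28, Pfkl (0.76 ± 0.13), Pgk1 (0.60 ± 0.11) and the oxidase Ero1a (0.65 ± 0.13), and the citrate cycle 0 of 22 with a median of 0.22. For mitochondrial ribosomal proteins, the 8 calls higher moved by over 1.5 times when arrays were dropped: leaving out tumor-free sample 3 or 4 left 2 and 2, and leaving out tumor-bearing sample 3, 4 or 5 left 5, 2 and 14. Without the slide term, the count was 2. For the respiratory chain, the 2 calls higher moved by over 1.5 times when arrays were dropped: leaving out tumor-free sample 3 or 5 left 0 and 1, and leaving out tumor-bearing sample 4 left 0. The fit with no slide term called 0. The respiratory chain median was 0.18 with quantile normalization and 0.18 in the deposited values. For the proteasome, the 2 calls higher moved by over 1.5 times when arrays were dropped: leaving out tumor-free sample 3 or 4 left 0 and 1, and leaving out tumor-bearing sample 4 or 5 left 1 and 4. Dropping the slide term gave a count of 0. The proteasome median was 0.17 with quantile normalization and 0.17 in the deposited values. By gene, the call of Mrps28 held whichever array was left out. Leaving out tumor-free samples 2, 3, 4 and 5 in turn lost 1, 7, 2 and 1 and leaving out tumor-bearing samples 3 and 4 in turn lost 1 and 6. Of the 8, 7 were lost without the slide term.

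**Figure D3:**
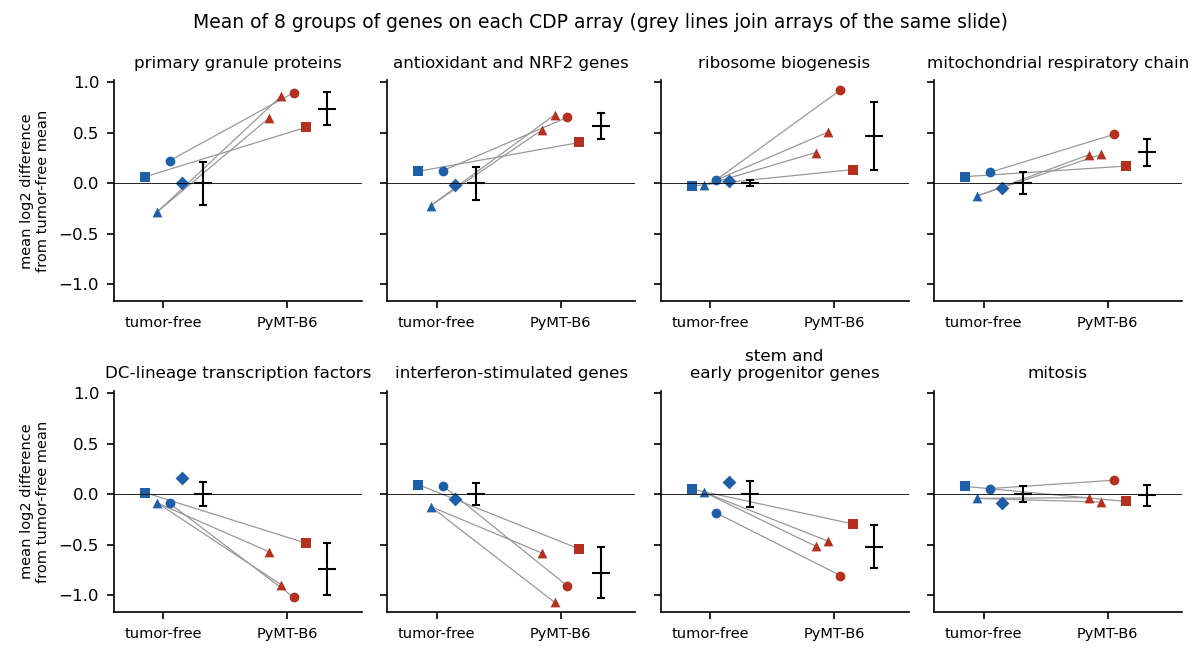
Mean log2 level of 8 gene groups on each of the 8 CDP arrays, relative to the mean of the 4 tumor-free arrays (vertical axis); marker shapes give the slide, gray lines join arrays of one slide and bars give the mean ± SD of each group. Interferon-stimulated genes and DC-lineage transcription factors lie lower on every tumor-bearing array than on any tumor-free array, and primary granule and ribosome biogenesis genes lie higher.

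The E-box CACGTG, the site of Myc-family factors, was present in 16.1% of promoters of genes called higher, 8.44% of those called lower and 9.21% of all. The windows of 4 nucleolar genes called higher, chosen after their values were seen, show it just downstream of the start, again in capitals and from RefSeq (GRCm38.p6, 5' to 3'): Wdr43 at chr17:71616220-71616249 on the plus strand, Utp4 at chr8:106893643-106893672 on the plus strand, Nle1 at chr11:82908355-82908384 on the minus strand and Mybbp1a at chr11:72441355-72441376 on the plus strand.
Wdr43: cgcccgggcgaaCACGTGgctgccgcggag
Utp4: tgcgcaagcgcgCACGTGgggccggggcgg
Nle1: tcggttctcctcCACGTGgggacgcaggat
Mybbp1a: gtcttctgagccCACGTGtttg
These genes changed by 1.04 ± 0.21 (Wdr43), 0.99 ± 0.14 (Utp4), 0.88 ± 0.17 (Nle1) and 0.79 ± 0.13 (Mybbp1a). Among them, the calls of Utp4 and Mybbp1a held whichever array was left out. Dropping tumor-free samples 3 and 4 in turn lost 2 and 1 and leaving out tumor-bearing sample 4 lost 2. Of the 4, 2 were lost without the slide term. Wdr43 had a further probe that was not called, with a change of 0.35.

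Of the other motifs, PU.1 sites, searched as GAGGAAGT, were found in 6.08% of rises, 4.22% of falls and 3.22% of all promoters, C/EBP sites, as TTGCNNAA, in 11.6, 7.47 and 8.97%, and NF-kappaB sites, as GGGNNTTCC, in 8.21, 9.42 and 6.90%. The general elements CCAAT and GGGCGG were present in 35.3 and 56.8% of promoters of rises and 38.8 and 54.9% of all. Shares were not tested.

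**Figure D4:**
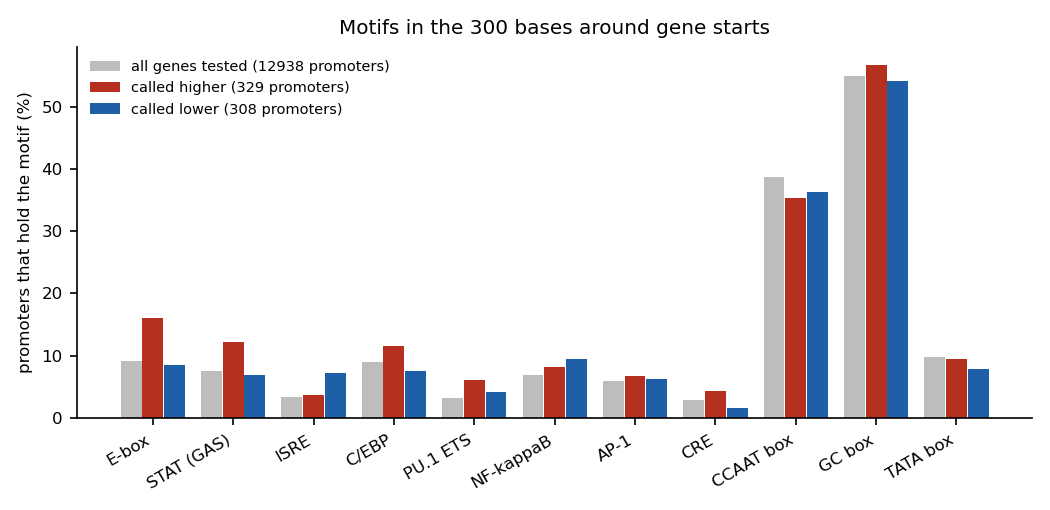
Percent of promoters (vertical axis, from 0) that hold each motif on either strand among genes called higher, genes called lower and all genes tested. The E-box stands at 16.1% of rises against 9.21% of all promoters, and the ISRE at 7.14% of falls against 3.32%.

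Few cell cycle genes were called. Of 26 mitosis genes 0 were called (median 0.021), and of 29 replication genes 1, cyclin E1, Ccne1 (0.60 ± 0.15). Mki67, the proliferation antigen Ki-67, had a fitted difference of 0.057 ± 0.091 (adjusted p = 0.744), whose sign turned with quantile normalization. Of 23 cyclins and cell cycle inhibitors (median 0.044), 4 were called higher and 2 lower: the D cyclins Ccnd1 (-1.57 ± 0.29) and Ccnd2 (-0.67 ± 0.14) were lower, and the inhibitors Cdkn1a (1.03 ± 0.17), Rgcc (5.27 ± 0.95) and Gadd45b (0.78 ± 0.17) and the antiproliferative Btg3 (0.77 ± 0.17) higher. Rgcc, a regulator of cell cycle entry, had the largest fitted rise of any gene called and read -4.23, -7.51, -1.91 and -7.54 on the tumor-free arrays and -0.29, 0.83, 0.80 and -1.19 on the tumor-bearing arrays, with 2 tumor-free arrays near background. Ccnd2 read 3.18, 3.24, 3.01 and 3.09 on the tumor-free arrays and 2.37, 2.15, 2.69 and 2.77 on the tumor-bearing arrays, and Cdkn1a, which encodes p21, read 0.71, 0.37, 0.86 and 0.44 on the tumor-free arrays and 1.44, 1.44, 1.9 and 1.67 on the tumor-bearing arrays. No gene was called among 30 splicing factors (median 0.042), 21 cholesterol synthesis genes (-0.094) or 17 genes of MHC class I loading (-0.031); of 15 class II genes, H2-Oa (-0.85 ± 0.15) and H2-Ob (-1.55 ± 0.40), which form the inhibitor of peptide exchange, were lower. For cell cycle regulators, the 4 calls higher moved by over 1.5 times when arrays were dropped: leaving out tumor-free sample 3, 4 or 5 left 0, 2 and 2, and leaving out tumor-bearing sample 3 or 4 left 2 and 1. By gene, no call held in all 8 fits that left out an array, and that of H2-Ob held in 0 of them. Omitting tumor-free samples 2, 3, 4 and 5 in turn lost 2, 9, 4 and 5 and leaving out tumor-bearing samples 2, 3, 4 and 5 in turn lost 3, 5, 7 and 1. Of the 9, 3 were lost without the slide term. Cdkn1a had a further probe that was not called, with a change of 0.041.

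Of 336 zinc finger genes named Zfp, 12 were called lower (3.57%, against 2.44% of all genes) and 0 higher. A change above 0 was seen in 80 of them (median -0.16). The middle bin by brightness, in which the group lies, held 3.7% falls and 3.75% rises, with a median of -0.095. Among the Zfp genes, the share of falls was thus near that of the bin. Zfp521, a cofactor of early progenitors, was the most changed (-2.49 ± 0.29, adjusted p = 0.00262), though a second probe changed by -0.24 and was not called. Of 35 enzymes of histone lysine methylation (median -0.024) 2 were called lower, Kdm5b and Kmt2a (-0.61 ± 0.16). Of 27 enzymes of histone acetylation (median -0.045), 2 were called lower, Hdac9 (-1.27 ± 0.20) and Hdac10 (-1.17 ± 0.27). Among 14 enzymes of DNA methylation (median -0.11), 2 were called lower, the methyltransferase Dnmt3a (-0.88 ± 0.19) and the oxygenase Tet1 (-1.59 ± 0.38). None of these 3 lists held a rise, but only 2.33% of all genes were called higher and 2.44% lower, and the lists are small. Of 23 remodelers 1 was called, Chd7 (2.08 ± 0.38), higher. Dnmt3a read -1.47, -1.66, -1.73 and -0.48 on the tumor-free arrays and -2.67, -3.06, -2.42 and -2.01 on the tumor-bearing arrays. Genes with a protein tyrosine phosphatase symbol held 3 falls among 29. Of these, Ptprcap is grouped by its symbol alone and encodes a CD45-associated protein. Ptprcap read 1.9, 1.98, 1.53 and 1.77 on the tumor-free arrays and 0.49, 0.046, 0.55 and 0.92 on the tumor-bearing arrays. Ptprcap changed by -1.29 ± 0.16 (SE, adjusted p = 0.00326). For Zfp genes, the 12 calls lower moved by over 1.5 times when arrays were dropped: leaving out tumor-free sample 3 or 5 left 3 and 7, and leaving out tumor-bearing sample 4 left 6. With slides ignored, the count was 6. The Zfp median was -0.092 without the slide term and -0.10 with normexp background correction. By gene, the calls of Zfp521, Hdac9 and Ptprcap held whichever array was left out. Fits without tumor-free samples 2, 3, 4 and 5 in turn lost 2, 5, 2 and 4 and leaving out tumor-bearing samples 2, 3, 4 and 5 in turn lost 1, 2, 5 and 2. Of the 8, 3 were lost without the slide term. Hdac9 had a further probe that was not called, with a change of -0.12.

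**Figure D5:**
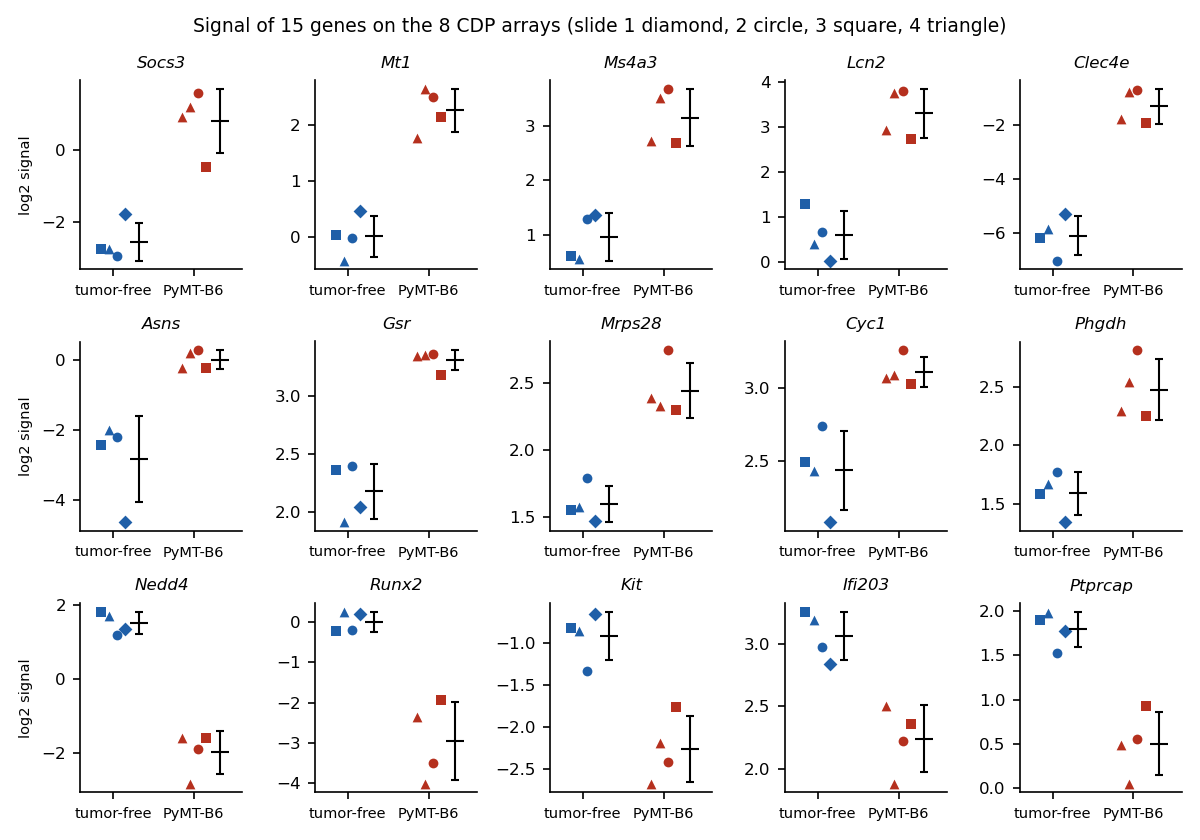
Log2 level (vertical axis, relative to the 75th percentile of the array) of 15 genes on the 4 tumor-free and 4 tumor-bearing CDP arrays; bars give the mean ± SD of each group and marker shapes the slide. Ms4a3, Socs3 and Gsr lie higher and Nedd4, Runx2 and Kit lower on every tumor-bearing array.

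The tumor change was set against that in MDPs, which come from other samples on the same slides. In MDPs 31 genes were called, and 16 were called in both progenitors. The change differed between CDPs and MDPs for 1 gene (0.00582% of genes tested), Cd209e, with -3.69 in CDPs and -0.04 in MDPs (difference -3.65 ± 0.36, adjusted p = 0.0189, limma interaction). Cd209e was not well above background on any of the 8 MDP arrays (levels -7.54 to -7.23), so that no fall could be measured there; the difference was called for 0 probes without tumor-free sample 3, tumor-free sample 4 or tumor-bearing sample 4, and for 0 with quantile normalization. With 1479 probes at an unadjusted interaction p below 0.05 and 2 after adjustment, no other gene can be called particular to CDPs. Side by side, for genes chosen after their values were seen, Cd209a changed by -3.3 in CDPs and -3.5 in MDPs, Mycl by -4.12 and -3.86, Lcn2 by 2.59 and 2.28, and Carmil1 by -2.39 and -2.05. Smaller fitted changes in MDPs, none with a difference that passed the test, were those of other genes: Nedd4 changed by -3.49 in CDPs and -0.84 in MDPs, Mmel1 by -2.96 and -0.061, Mt1 by 2.35 and 0.87, Elane by 1.01 and 0.18, and Ifit3 by -3.86 and -1.67.

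Neighboring genes on a chromosome were called together in places. Of 13475 pairs of consecutive tested genes within 200 kb, both were called in 55 pairs, and 46 of these changed in the same direction. Over all genes 4.77% were called, and how many such pairs would arise by chance was not worked out. The pairs include genes close in sequence, such as those of the Cd209 block and Hba-a1 with Hba-a2. The count is therefore a description. Apart from the Cd209 block, the runs of 3 genes were Phospho1, Abi3 and Gngt2 and Chil3, Chil4 and Gm6522, called higher, and Eldr, Fbxo48 and Plek and Satb1, C230085N15Rik and Gm6934, called lower. Pairs called higher included Ms4a6d with Ms4a3, Clec4d with Clec4e, Lrg1 with Sema6b and Wfdc18 with Wfdc21, and pairs called lower included Tnfsf15 with Tnfsf8 and Itgb3 with Myl4. Chil3 and Chil4 are close in sequence, and signal shared between their probes was not tested. In the Reactome catalogue, the sets with the highest share called lower were heme scavenging, DC-SIGN signaling and antiviral action through ISG15. Heme scavenging held 4 of 18 (22.2%: Cd163, Hbb-b2, Hba-a1 and Hba-a2), with Hp called higher. DC-SIGN signaling held 4 of 19 (21.1%: Cd209e, Cd209c, Fyn and Nfkb1). The ISG15 set held 4 of 26 (15.4%: Nedd4, Usp18, Isg15 and Uba7). These sets share only some members with the groups described for globins, Cd209 genes and interferon-stimulated genes. Transcripts with predicted names added 18 rises and 41 falls, and 151 called probes carried no symbol.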

How the data were processed

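Gene expression was measured in 16 single-color arrays (Agilent, Cy5), 4 samples in each of 4 groups (MDPs and CDPs, with and without tumor), each sample grouped by its title. The authors deposited scanner files (Feature Extraction 11.5.1.1) with background-subtracted processed signal, an intensity not normalized between arrays, and a table of log2 values, used only as an alternative; per the labels the submitters' tools include limma, and how that table was normalized is not given in the sources used here. Probe positions in the deposited files are on mm9.

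Here log2 intensity minus the 75th percentile of each array was fitted with limma 3.58.1 (R 4.3.3) over all 16 arrays with group and slide as terms. Control and outlier spots were left out, replicate spots averaged, and probes tested if a group had 3 or more of its 4 arrays well above background. A call needed a Benjamini-Hochberg FDR below 0.05 and a fold above 1.5, the thresholds of the study's methods. A gene was read by its brightest tested probe. Where a probe was not well above background on any array of a group, the fold is a lower bound: the mean of the bright group against the lowest signal well above background on each array of the dim group. Precision is limited by the number of arrays, and the calls also leaned on the slide term and on the MDP arrays. The fit was tested on simulated data of 27301 probes. It recovered 59 of 100 changes of 1 and 80 of 100 changes of 2 on the log2 scale. Of 27101 unchanged probes, it called 9. These counts hold for those data only, and the share of false calls on the real arrays was not tested.

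Named genes were the 12 largest rises and falls measured in both groups without overlap, the largest changes to or from background, called members of functional lists (at most 8 a list), markers, and genes that differed from MDPs. Members and lists were chosen with earlier results of these data known. Gene groups were described by counts and medians, without a set test. Same-numbered CDP samples of the 2 groups deviated together with correlations of 0.153, 0.481, 0.144 and 0.0214, so their numbers were not taken as pairs. Alternatives covered the slide term, background correction, normalization, filter, thresholds, the deposited log2 table and each left-out array. Some items are not reported here.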

Additional observations from a re-analysis of the deposited data

Results flagged for a closer look

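Of 396 groups of 4 arrays of a gene named in the text, 27 held 1 array whose gap to the others exceeded Dixon's critical value for 4 samples, where chance gives about 5%, or 1 in 20. In tumor-free sample 2, the genes set apart were Il22ra2 at -5.23 (others -7.73 to -7.34) and Klf9 at -4.81 (others -3.21 to -2.89). For tumor-free sample 4, the genes set apart were Cd27 at -1.03 (others -0.35 to -0.24), Gpx3 at 0.63 (others 0.18 to 0.25), P2ry2 at -1.77 (others -2.36 to -2.28) and Polr1b at -1.4 (others -2.04 to -1.94). On tumor-free sample 5, the genes set apart were Aqp1 at -1.99 (others -4.48 to -4.26), Asns at -4.63 (others -2.43 to -1.99), Cd81 at -0.22 (others -1.36 to -1.22), Clec4g at -2.07 (others -3.31 to -3.11), Fcgr1 at -2.37 (others -0.38 to -0.03), Klrd1 at -0.55 (others -2.26 to -2.17), Ngfr at -1.1 (others -1.89 to -1.87), Srgn at 2.13 (others 1.36 to 1.4) and Upk1b at -1.94 (others -3.48 to -3.47). In tumor-bearing sample 2, the genes set apart were Cd96 at -3.82 (others -7.55 to -7.28) and D130062J21Rik at -5.95 (others -7.53 to -7.27). For tumor-bearing sample 3, the genes set apart were Gstm1 at 3.4 (others 2.8 to 2.88) and Trim30d at 0.10 (others 1.1 to 1.25). On tumor-bearing sample 4, the genes set apart were Gbp7 at -0.37 (others -1.17 to -1.03), H2-Ob at -3.14 (others -1.48 to -1.25), Polr1a at 0.12 (others -0.62 to -0.55) and Sod2 at 3.55 (others 2.84 to 2.94). In tumor-bearing sample 5, the genes set apart were Batf3 at -1.74 (others -2.18 to -2.13), Gfi1 at -2.89 (others -1.2 to -0.96), Gsr at 3.18 (others 3.34 to 3.36) and Pdgfrb at -3.7 (others -7.55 to -7.39). Tumor-free sample 5, the only CDP sample of its slide, held 9 of these, all on the log2 scale relative to the 75th percentile of the array.

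The tumor change of Cd209e, the DC-SIGN homolog at the chromosome 8 block, differed between CDPs and MDPs by -3.65 on the log2 scale (adjusted p = 0.0189, limma interaction), with no MDP array above background.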

How the results depend on the processing

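All 820 called genes kept their direction under every alternative that gave a value, but the number called moved. The alternatives drew on the same arrays that gave the calls, so the kept direction is no separate support. Against 1251 probes and 820 genes, there were 491 and 335 without the slide term, 8 and 6 when only the CDP arrays were fitted, and 55 and 37 for those arrays without the slide term. Stricter thresholds left 538 and 357 (fold above 2) or 296 and 206 (FDR below 0.01). The methods' t-test on the CDP arrays called 2072 probes and 1284 genes before and 3 and 2 after Benjamini-Hochberg adjustment, both with a fold above 1.5. Leaving out 1 array gave 285 to 1290 probes and 190 to 855 genes, lowest without tumor-free sample 3 and next lowest without tumor-bearing sample 4 (338 and 217). Of the 820 genes, 331 were still called without the slide term, 734 with slide as a random block, 576 with normexp background correction, 692 with quantile normalization and 632 of 808 in the deposited table.

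The median change of all probes, -0.0529, became 0.0768 without the slide term, in the CDP arrays alone without it and in the t-test, and ran from -0.07 to -0.0398 over the left-out arrays. The difference between CDPs and MDPs was called for 2 probes, 4 without the slide term, 10 with slide as a random block, 0 with quantile normalization, 0 with the filter on all 16 arrays, which by construction leaves out probes at background in a group, and 0 to 5 over the left-out arrays. For the other shifts the cause was not tested. The sign turned in 3 genes that were not called, for Mki67 to -0.07 with quantile normalization and in the deposited table, for Camp to 0.03 and for Ltf to 0.14 without tumor-free sample 2, and for Ltf to 0.11 without tumor-free sample 3; over all left-out arrays Camp ran from -1.57 to 0.03 and Ltf from -0.95 to 0.14.

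With the replicate number as a block in place of the slide, 371 probes and 267 genes were called, the median of all probes was 0.0767 and the difference from MDPs was called for 4 probes. With the replicate block beside the slide term the counts were 1220 and 814. After removal of the slide, same-numbered CDP samples correlated at 0.0791, -0.177, -0.316 and 0.0347, and not every sample correlated best with its own number, so the numbers are not a pairing and a call lost under the block is no sign of a weaker effect. Probes dim in both groups limit what could be called: the dimmest bin of genes by level held 0.436% rises and 2.09% falls.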
